A study of Homo sapiens with 24 samples.

Results

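The transcriptomes of human dopaminergic neurons exposed to ziram were compared directly with those of the same kind of neurons exposed to methylmercury. The comparison used the 3 ziram and the 3 methylmercury libraries, 6 of the 24 libraries of the study, and every gene that passed an expression filter, 18852 of 58051. The neurons came from LUHMES, a line of conditionally immortalised precursors from human fetal mesencephalon, differentiated with tetracycline, cAMP and GDNF. Cultures received 2 µM ziram, 0.5 µM methylmercury (as the chloride) or 1% DMSO as the vehicle, each for 6 h, and 3 libraries were made for each group. Stock solutions of the toxicants were also in DMSO. Libraries of the other 5 toxicants of the study entered the expression filter, the scaling and the estimate of the spread, and so also the set of genes tested. The doses of ziram and methylmercury differ, so every difference given here is between the treatments as applied and not between the compounds at a matched dose.

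Ziram is the zinc salt of dimethyldithiocarbamate, a fungicide whose dithiocarbamate part binds metals and sulfhydryl groups. Methylmercury is an organic mercury compound that binds thiols and the selenol of selenoproteins, and the nervous system is its best known target. Cells meet both kinds of stress with a few transcription factors. MTF1 senses zinc and, when loaded with it, activates metallothioneins, small cysteine-rich proteins that bind zinc, copper, cadmium and mercury, together with the zinc exporter SLC30A1. NRF2 is released from KEAP1 when cysteines of KEAP1 are modified, and activates genes of glutathione and thioredoxin metabolism. HSF1 responds to misfolded cytosolic proteins and activates heat shock chaperones, and ATF4 is translated when eIF2α is phosphorylated and activates amino acid transport and synthesis.

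Library totals ranged from 29.5 to 46.9 megareads in ziram, from 14.5 to 32.9 in methylmercury and from 14.3 to 33.4 in DMSO, so the methylmercury values rest on fewer reads. The median SD of log2 CPM among the libraries of a group, over 11370 genes, was 0.0834 in ziram, 0.137 in methylmercury and 0.0866 in DMSO. The labels call the libraries biological triplicates. The p-values measure differences against a spread between samples estimated over all 8 groups of the study, among them rotenone with a median SD of 0.197. The dopamine transporter SLC6A3 averaged 673, 686 and 636 CPM in ziram, methylmercury and DMSO, and tyrosine hydroxylase (TH) averaged 46.7, 38.5 and 50.8 CPM. The vesicular monoamine transporter SLC18A2 stood below 1 CPM in all 3 groups, and 16 of 20 listed dopaminergic markers passed the filter. CPM are counts per megaread of the scaled library total. In these bulk libraries fewer cells of a type and less RNA per cell cannot be told apart.

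The promoters below are shown because each belongs to a gene described here that is a textbook target of a stress pathway with a known promoter motif. They come from RefSeq (GRCh38.p14), 250 bases before to 50 after the annotated start, 5′ to 3′ on the strand of the gene, and capitals mark matches on either strand. MT2A (chr16:56608334-56608633, plus strand), SLC30A2 (chr1:26046069-26046368, minus strand) and SLC30A1 (chr1:211579112-211579411, minus strand) are shown with the metal response element, spelled TGCACNC or TGCGCNC. HSPA6 (chr1:161524290-161524589, plus strand) is shown with the heat shock element, 3 alternating units of GAA and TTC, each 2 bases from the next, starting with either unit. HSP90B1 (chr12:103930160-103930459, plus strand) is shown with the endoplasmic reticulum stress element, CCAAT and CCACG with 9 bases between them.
MT2A: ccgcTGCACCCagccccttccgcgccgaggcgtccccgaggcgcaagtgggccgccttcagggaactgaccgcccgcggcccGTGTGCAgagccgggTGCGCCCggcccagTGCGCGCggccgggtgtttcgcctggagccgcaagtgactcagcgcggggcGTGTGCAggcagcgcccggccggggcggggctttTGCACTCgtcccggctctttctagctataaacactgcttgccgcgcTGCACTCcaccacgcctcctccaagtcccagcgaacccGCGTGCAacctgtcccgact
SLC30A2: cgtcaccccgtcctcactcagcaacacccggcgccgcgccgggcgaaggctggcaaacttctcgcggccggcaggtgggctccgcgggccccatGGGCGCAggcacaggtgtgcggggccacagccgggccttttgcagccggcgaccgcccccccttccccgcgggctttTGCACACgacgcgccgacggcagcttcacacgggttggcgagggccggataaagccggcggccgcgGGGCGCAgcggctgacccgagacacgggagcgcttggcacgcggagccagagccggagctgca
SLC30A1: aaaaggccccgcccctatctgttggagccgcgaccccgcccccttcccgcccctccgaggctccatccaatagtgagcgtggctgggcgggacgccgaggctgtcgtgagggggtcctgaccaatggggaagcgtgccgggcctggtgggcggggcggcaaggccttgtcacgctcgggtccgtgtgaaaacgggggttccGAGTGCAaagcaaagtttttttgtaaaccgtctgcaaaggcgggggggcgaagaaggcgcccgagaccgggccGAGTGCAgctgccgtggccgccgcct
HSPA6: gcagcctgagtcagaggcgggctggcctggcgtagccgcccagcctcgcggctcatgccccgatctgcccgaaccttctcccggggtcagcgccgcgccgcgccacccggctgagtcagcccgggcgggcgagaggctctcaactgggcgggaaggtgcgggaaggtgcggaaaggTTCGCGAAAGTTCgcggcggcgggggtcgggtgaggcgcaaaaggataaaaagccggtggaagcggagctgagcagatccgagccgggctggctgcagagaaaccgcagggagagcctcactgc
HSP90B1: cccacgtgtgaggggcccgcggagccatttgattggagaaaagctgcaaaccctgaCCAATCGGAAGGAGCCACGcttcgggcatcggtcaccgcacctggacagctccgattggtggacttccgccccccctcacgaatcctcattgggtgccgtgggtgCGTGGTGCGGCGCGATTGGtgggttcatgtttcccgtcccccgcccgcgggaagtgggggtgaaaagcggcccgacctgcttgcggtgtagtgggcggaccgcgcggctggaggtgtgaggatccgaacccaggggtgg

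MT2A held 8 matches to the metal response element, a number reached or passed by 6 of all 27305 promoters of this length (0.022%). SLC30A2 held 3 and SLC30A1 held 2, and 29.3% of all promoters held at least 1. Of the metallothioneins tested, 3 of 8 were found in the promoter table (MT2A, MT1H and MT1X), and MT1H held 8 matches and MT1X held 4. The heat shock element occurred at 1 place in HSPA6 and in 0.487% of all promoters, and the endoplasmic reticulum stress element occurred at 2 places in HSP90B1 and in 0.0806% of all promoters. The metal response element was present in 41.8% of the 91 matched promoters of genes higher in ziram, in 42.9% of the 49 of genes lower in ziram and in 38.4% of the 11805 of all genes tested. A match is a description of the letters in the window and not a binding site.

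All called genes at or above a 4-fold difference between ziram and methylmercury were higher in ziram. They included the metallothioneins, the zinc exporter SLC30A2, the cystine importer SLC7A11 and the chaperone HSPA6. Between the treatments, 205 genes (1.09% of those tested) passed an adjusted p of 0.05 in the quasi-likelihood test of edgeR. Of these, 140 genes (0.743%) were higher and 65 (0.345%) were lower in ziram, and for each of the 205 the libraries of the groups did not overlap. A call favours genes without overlap, so this is no separate support, and the share without overlap over all genes was not counted. The 140 genes higher in ziram had a median log2 difference of 0.73, with 45 at or above a 2-fold and 17 at or above a 4-fold difference. The 65 genes lower in ziram had a median of -0.38 and lay between -0.25 and -0.96, so that none reached a 2-fold difference. Over all genes tested the median difference was 0.01. Against DMSO, 100 genes (0.53%) were called in ziram and 54 (0.286%) in methylmercury, and these comparisons share the DMSO libraries. Counts of edgeR calls per list, given below, are to be read beside these shares of all genes. DESeq2 called more genes, 250 higher and 254 lower of 13369 between the treatments. Against DMSO it called 184 of 15197 in ziram and 310 of 12273 in methylmercury. Its counts per list are to be read beside these. The share of all genes at an unadjusted p under 0.05 was not counted, so list counts at that threshold have no such comparison.

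The size of this list depended on single libraries and on the scaling. It held 51 genes without ziram replicate 1 and 51 without methylmercury replicate 2. It held 81, 128 and 135 genes without ziram replicate 3, ziram replicate 2 and methylmercury replicate 1. With library totals in place of TMM scaling, 160 genes were higher and 43 lower. Transcripts higher in ziram had a median GC content of 54.8%, those lower had 43.8% and all genes tested had 48.6%, with median lengths of 4102, 2903 and 3105 bases. A correction for GC content and length, chosen after seeing the data, called 235 genes higher and 182 lower and kept 193 of the 205.

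**Figure D1:**
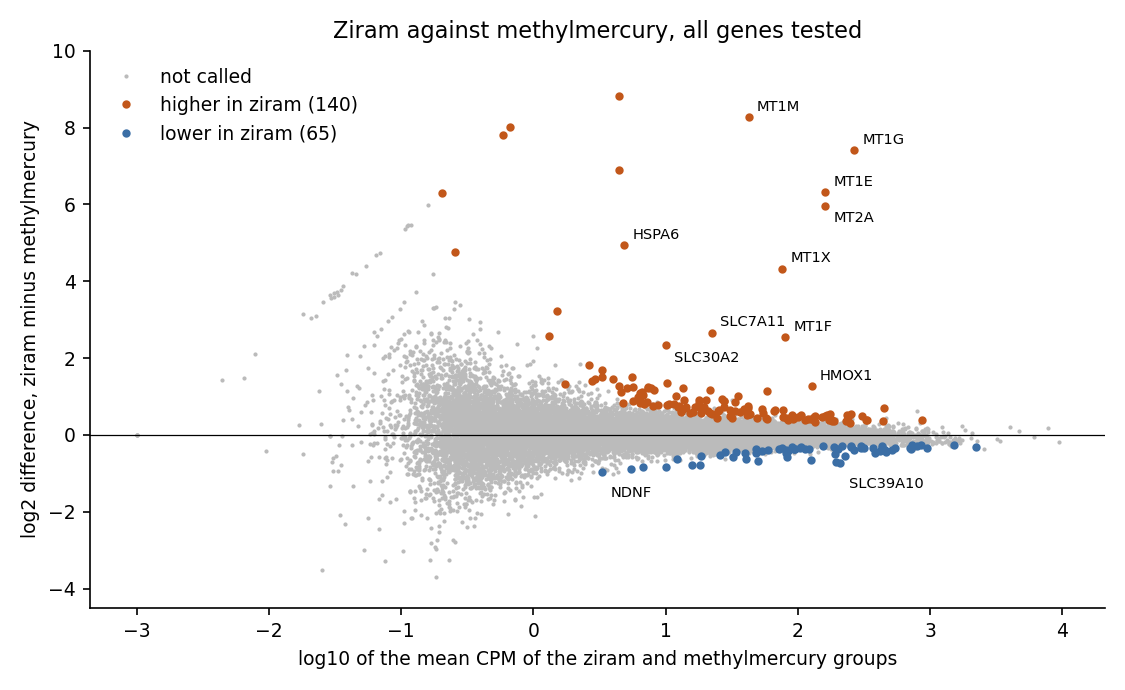
Each point is 1 of the 18852 genes tested, placed by the log10 of its mean CPM over the ziram and methylmercury groups (x axis) and its log2 difference, ziram minus methylmercury (y axis). Coloured points passed the edgeR test (140 higher, 65 lower); the called points far from 0 lie above it and include the metallothioneins, HSPA6, SLC7A11 and SLC30A2, while none of the 65 called lower reached -1.

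Metallothionein transcripts were higher in ziram than in methylmercury for all 8 metallothionein genes tested. A wider set of genes with metallothionein symbols, among them the 8 tested and the pseudogenes MT1L and MT1JP, was summed over all counts. This set made up 0.181%, 0.134% and 0.166% of all counts in the 3 ziram libraries. Its share was 0.00455%, 0.0046% and 0.00408% in methylmercury and 0.000952%, 0.0012% and 0.00107% in DMSO. MT1G, the gene in the title of the study (chromosome 16, 56666731 to 56668065, GRCh38), stood at 583, 446 and 567 CPM in ziram, 3.31, 3.43 and 2.76 CPM in methylmercury and 0, 0.0404 and 0.0296 CPM in DMSO. The 3 groups did not overlap, with methylmercury between ziram and DMSO. MT1G was 170.5-fold higher in ziram than in methylmercury, a log2 difference of 7.41 ± 0.67 (SE), with an edgeR adjusted p of 1.28e-08.

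MT2A, the most widely expressed human metallothionein, stood at 359, 263 and 331 CPM in ziram, 4.81, 5.99 and 4.68 CPM in methylmercury and 0.356, 0.606 and 0.65 CPM in DMSO. Its 3 groups were likewise separate, and its log2 difference between the treatments was 5.97 ± 0.38 (edgeR adjusted p = 3.47e-12). MT1E stood at 349.6, 271 and 329.8 CPM in ziram and 3.51, 4.51 and 3.98 CPM in methylmercury, a log2 difference of 6.32 ± 0.51. MT1X stood at 175, 120.5 and 142 CPM in ziram and 7.57, 8.88 and 5.68 CPM in methylmercury, a log2 difference of 4.33 ± 0.28. For both genes every ziram library lay far above every methylmercury library.

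MT1F (chromosome 16, 56657694 to 56660698) differed least between the treatments, with 147, 117 and 146 CPM in ziram, 24.7, 21.7 and 23.6 CPM in methylmercury and 6.69, 9.01 and 7.95 CPM in DMSO. Its libraries still separated into 3 groups, with a log2 difference of 2.55 ± 0.16 between the treatments (edgeR adjusted p = 3.47e-12). MT1F was also the metallothionein with the highest level in DMSO. It made up most of the metallothionein reads in methylmercury, 54.0 ± 4.81% of them against 8.86 ± 0.322% in ziram (SD, n = 3 each). In DMSO MT1F also made up most of the metallothionein level, with a mean of 7.88 CPM beside a mean sum of 10.8 CPM for the 8 genes. MT1G made up 34.5 ± 0.745% of the metallothionein reads in ziram and 7.29 ± 0.46% in methylmercury.

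MT1M stood at 105, 64.6 and 84.8 CPM in ziram, 0.586, 0.135 and 0.0911 CPM in methylmercury and 0 in DMSO, a log2 difference of 8.28 ± 0.56 between the treatments. MT1H had 942 reads in the 3 ziram libraries and 1 in the 3 methylmercury libraries, a ratio of 613 with an exact 95% counting interval of 109.8 to 24256. MT1A had 144 reads in ziram and 0 in methylmercury and was at least 31.3-fold higher in ziram, against a floor of 3 reads over the group. The pseudogenes MT1L and MT1JP were called as well, with 918 and 122 reads in ziram, against 5 and 0 in methylmercury, and the call of MT1JP was lost without ziram replicate 1 or 3 or any 1 methylmercury library. Intervals and floors cover counting error only. These genes are so alike in sequence that reads may have been assigned to the wrong copy or lost, and their sum is less exposed to the first of these.

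**Figure D2:**
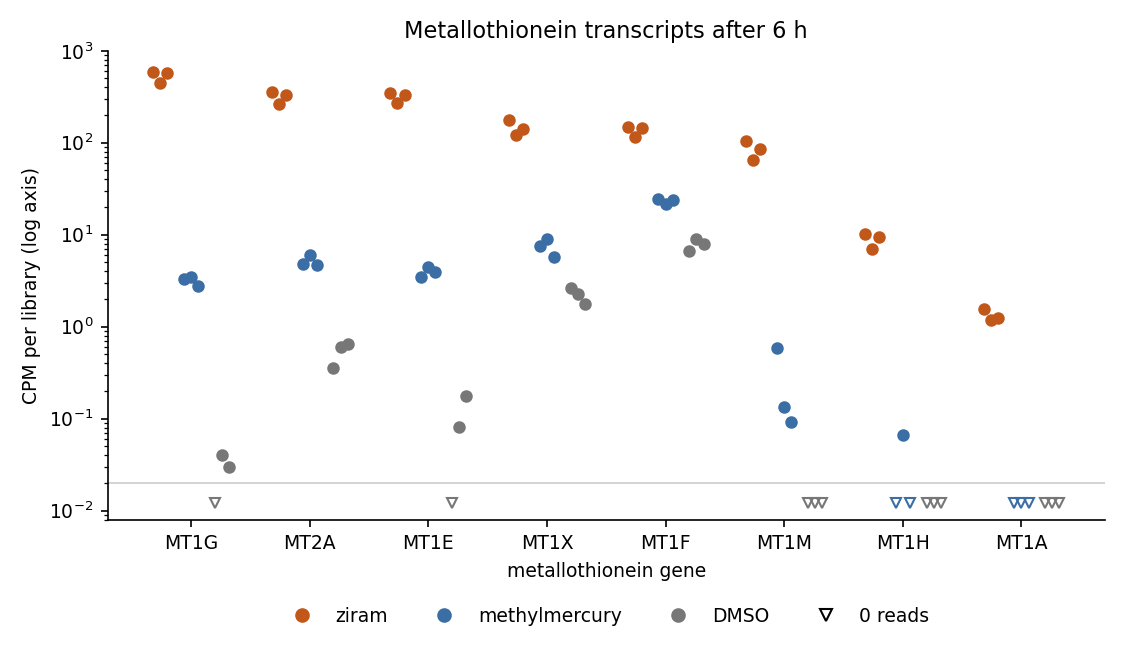
CPM of the 8 metallothioneins (log axis) in each ziram, methylmercury and DMSO library, with open triangles for libraries with 0 reads. Ziram libraries lie above all methylmercury libraries for every gene, and MT1F has the narrowest gap, with 117 to 147 CPM against 21.7 to 24.7 CPM.

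Each treatment was also set against DMSO. In ziram all 8 metallothioneins were called higher, with log2 differences of 4.10 ± 0.17 for MT1F and 9.10 ± 0.48 for MT2A, beside 0.408% of all genes called higher and 0.122% called lower. In methylmercury 4 of 8 were called higher, beside 0.223% of all genes called higher and 0.0637% called lower. The 4 were MT1F (1.55 ± 0.17), MT1X (1.75 ± 0.32), MT2A (3.13 ± 0.56) and MT1E (5.11 ± 1.05), all as log2 differences from DMSO. MT1G had 57063 reads in ziram, 221 in methylmercury and 2 in DMSO, and its difference between methylmercury and DMSO did not pass (edgeR adjusted p = 0.12). In 1 library of another toxicant, rotenone replicate 1, the wider metallothionein set made up 0.00579% of all counts, more than in any methylmercury library. Rotenone replicates 2 and 3 stood at 0.00107% and 0.0014%. Whether metallothionein reads were carried over between libraries during sequencing was not tested.

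Zinc transporters differed in both directions. SLC30A2, an exporter that loads zinc into vesicles, stood at 19.5, 13.8 and 17.2 CPM in ziram, 2.64, 2.96 and 4.22 CPM in methylmercury and 1.07, 0.889 and 0.65 CPM in DMSO. No 2 groups overlapped, and the log2 difference between the treatments was 2.34 ± 0.35 (edgeR adjusted p = 0.000158). SLC30A1, the exporter of the plasma membrane and a classical MTF1 target, stood at 90.9, 88 and 89.2 CPM in ziram, 70.8, 78.6 and 62.4 CPM in methylmercury and 27.8, 24.6 and 24 CPM in DMSO. All libraries of both treatments lay far above DMSO, by 1.82 ± 0.14 in ziram and 1.47 ± 0.14 in methylmercury on the log2 scale, and both passed. Between the treatments SLC30A1 differed by 0.34 ± 0.13 (95% interval 0.07 to 0.61), which did not pass (edgeR adjusted p = 0.248; 0.0419 with the ziram, methylmercury and DMSO libraries only).

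SLC39A10, an importer that brings zinc into the cytosol, stood at 169, 160.1 and 144 CPM in ziram, 259.6, 265 and 257 CPM in methylmercury and 287, 280.5 and 278 CPM in DMSO. The ziram libraries were all lower than every other library of the 3 groups, with a log2 difference from methylmercury of -0.73 ± 0.09 (edgeR adjusted p = 4.9e-06). Of the zinc exporters, 1 of 9 was called higher in ziram than in methylmercury and none lower, and of the importers, 0 of 12 were called higher and 1 lower. The share of all genes called was 0.743% higher and 0.345% lower. Beside SLC39A10, the importer SLC39A6 had the next smallest p, with 370.3, 389 and 365 CPM in ziram and 441, 436 and 434 CPM in methylmercury (edgeR adjusted p = 0.129; 0.033 by DESeq2). Copper transporters and chaperones gave 0 calls of 12 in edgeR and 0 in DESeq2, with 1 at an unadjusted p under 0.05.

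Genes of the NRF2 list differed in both directions. Of 35 tested, 2 were called higher and 1 lower in ziram (3 and 7 at an unadjusted p under 0.05; 2 and 2 by DESeq2). The share of all genes called was 0.743% higher and 0.345% lower. The log2 difference was above 0 for 11 and below 0 for 24 of the list, with a median of -0.10, beside 0.01 for all genes. SLC7A11, the cystine importer that feeds glutathione synthesis and a target of both NRF2 and ATF4, stood at 52.1, 34.5 and 29.2 CPM in ziram, 6.53, 6.86 and 5.1 CPM in methylmercury and 2.28, 4.6 and 4.02 CPM in DMSO. All ziram libraries lay above all others, and its log2 difference was 2.66 ± 0.24 (edgeR adjusted p = 1.28e-08). HMOX1, the heme-degrading enzyme, stood at 251, 159 and 129 CPM in ziram, 67.2, 74.2 and 81.8 CPM in methylmercury and 26, 24 and 24.3 CPM in DMSO. Its 3 groups did not overlap, ziram replicate 1 was the highest library, and its log2 difference was 1.27 ± 0.16 (edgeR adjusted p = 1.03e-05).

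TXNRD1, the cytosolic thioredoxin reductase and a selenoprotein, went the other way. It stood at 322, 322 and 318 CPM in ziram, 457, 452 and 424 CPM in methylmercury and 279.9, 304 and 291 CPM in DMSO. Methylmercury libraries were the highest and ziram libraries lay just above DMSO, with a log2 difference between the treatments of -0.47 ± 0.07 (edgeR adjusted p = 0.000195). NQO1, a quinone reductase, was higher than DMSO in both treatments, by 1.11 in ziram and 1.53 in methylmercury, and its difference between them, -0.42 ± 0.12, did not pass (edgeR adjusted p = 0.104) but did so by DESeq2 (adjusted p = 0.0327), in the 2 groups alone (0.041) and with the ziram, methylmercury and DMSO libraries only (0.0182). GCLM, the modifier subunit of the enzyme that starts glutathione synthesis, stood at 22.4, 19.98 and 16.1 CPM in ziram and 25.9, 33 and 24.1 CPM in methylmercury and was called against DMSO in methylmercury (1.04), while its difference between the treatments did not pass (edgeR adjusted p = 0.205). Against DMSO, edgeR called 5 of the 35 NRF2 targets higher in each treatment, DESeq2 called 6 in ziram and 9 in methylmercury, and at an unadjusted p under 0.05 there were 7 in ziram and 12 in methylmercury. The edgeR shares of all genes called higher against DMSO were 0.408% in ziram and 0.223% in methylmercury. Of 25 selenoproteins and genes of their synthesis, TXNRD1 was the only call. The antioxidant response element, spelled TGACNNNGC, occurred in 8 of 26 matched promoters of the list and in 13.6% of all promoters.

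**Figure D3:**
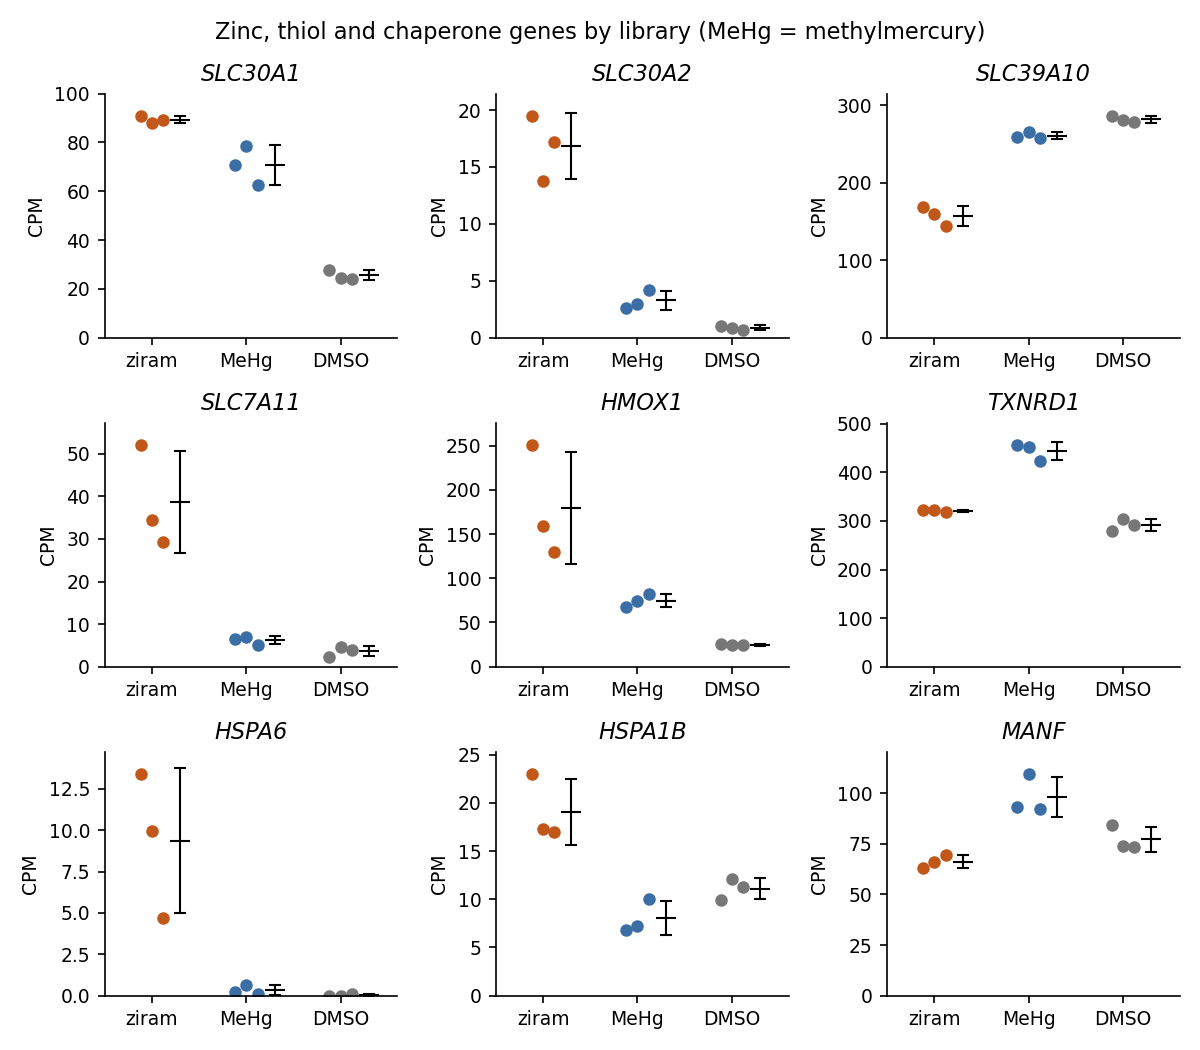
CPM in each library (points) with the mean and SD of each group (bars, n = 3) for 9 genes, every axis starting at 0. SLC30A1 was high in both treatments, SLC30A2, SLC7A11, HMOX1, HSPA6 and HSPA1B were highest in ziram, SLC39A10 was lowest in ziram, and TXNRD1 and MANF were highest in methylmercury.

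Some heat shock genes, HSPA6 most of all, were higher in ziram, and most of the list did not pass. Of 30 HSF1 targets and chaperones, 7 were called higher and 0 lower (10 and 2 at an unadjusted p under 0.05, and 7 and 0 by DESeq2). The median log2 difference was 0.07, and 0.743% of all genes were called higher and 0.345% lower. HSPA6, a strictly inducible HSP70, stood at 13.4, 9.99 and 4.73 CPM in ziram, 0.251, 0.673 and 0.122 CPM in methylmercury and 0, 0 and 0.0887 CPM in DMSO. All ziram libraries lay above all others, and it had 1041 reads in ziram, against 20 in methylmercury and 3 in DMSO. The log2 difference between the treatments was 4.93 ± 0.60 (edgeR adjusted p = 1.4e-05), and HSPA6 has near-identical relatives that may share its reads.

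HSPA1B, the other inducible HSP70 called, stood at 23, 17.2 and 17 CPM in ziram, 6.86, 7.27 and 10.02 CPM in methylmercury and 9.96, 12.1 and 11.3 CPM in DMSO, a log2 difference of 1.23 ± 0.16 (edgeR adjusted p = 3.46e-05). The methylmercury and DMSO libraries overlapped, and all ziram libraries lay above both. HSPB1, a small heat shock protein, stood at 27.5, 21.2 and 21.9 CPM in ziram and 12.4, 12 and 13.2 CPM in methylmercury, a log2 difference of 0.91 ± 0.15. SERPINH1, the collagen chaperone of the endoplasmic reticulum, stood at 52.7, 38.2 and 38.3 CPM in ziram and 22.1, 23.3 and 25.5 CPM in methylmercury, a log2 difference of 0.86 ± 0.15. The other 3 were the HSP90 co-chaperone FKBP4 (0.54) and the HSP110 family members HSPA4L (0.63) and HSPH1 (0.55). For each of these 5 genes the ziram libraries were all higher than the methylmercury libraries. Against DMSO, 9 of the 30 were called higher in ziram and 1 in methylmercury, the constitutive HSPA8 (0.34), while DESeq2 called 9 in ziram and 6 in methylmercury. Of all genes, edgeR called 0.408% higher in ziram and 0.223% higher in methylmercury against DMSO. DESeq2 called 131 of 15197 and 220 of 12273 higher. Without ziram replicate 1, 4 of the 7 calls between the treatments were left. The heat shock element occurred in 5 of 27 matched promoters of this list.

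Targets of ATF4 were the largest group by number. Of 34 tested, 17 were called higher in ziram and 0 lower (27 and 0 at an unadjusted p under 0.05, and 22 and 0 by DESeq2). Of all genes tested, 0.743% were called higher and 0.345% lower. The log2 difference lay above 0 for 32 of 34, beside 9860 of all 18852 genes, with a median of 0.43. Against DMSO, 12 of the 34 were called higher in ziram with a median of 0.45, and 0 in methylmercury with a median of 0.01 (7 higher and 0 lower at an unadjusted p under 0.05; 0 by DESeq2). The edgeR shares of all genes called higher against DMSO were 0.408% in ziram and 0.223% in methylmercury. ATF4 transcript itself did not pass, with 505 CPM in ziram and 522 CPM in methylmercury.

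Several amino acid transporters were called. SLC7A5, which imports large neutral amino acids, stood at 84.6, 71.4 and 87.7 CPM in ziram, 41.8, 24.6 and 43.5 CPM in methylmercury and 33, 42.1 and 38.1 CPM in DMSO. Its ziram libraries were all above the others, methylmercury and DMSO overlapped, and the log2 difference between the treatments was 1.14 ± 0.16 (edgeR adjusted p = 7.68e-05). Its partner SLC3A2 stood at 219, 175 and 196 CPM in ziram and 136, 128 and 149 CPM in methylmercury (0.51). The cationic amino acid transporter SLC7A1 (0.66) and the neutral amino acid transporter SLC1A4 (0.47) were called too.

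Enzymes of amino acid synthesis and charging were also among the calls. ASNS, asparagine synthetase, stood at 315, 269.9 and 256 CPM in ziram, 194, 221 and 193 CPM in methylmercury and 172, 174 and 191 CPM in DMSO, a log2 difference of 0.47 ± 0.08 (edgeR adjusted p = 0.000917). The ziram libraries were again the highest, and the methylmercury libraries all lay above the DMSO libraries. PHGDH, the first enzyme of serine synthesis, and the mitochondrial folate enzymes SHMT2 and ALDH1L2 differed by 0.49, 0.38 and 0.63. The alanyl and cysteinyl tRNA synthetases AARS and CARS differed by 0.37 and 0.40.

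Regulators within the list were called as well. CHAC1, which degrades glutathione, stood at 17.6, 14.8 and 22.1 CPM in ziram, 11.1, 7.54 and 10.2 CPM in methylmercury and 7.54, 8.72 and 8.9 CPM in DMSO, a log2 difference of 0.90 ± 0.19 (edgeR adjusted p = 0.0137). All ziram libraries were above all methylmercury libraries, and the call was lost without ziram replicate 1 or 3 or methylmercury replicate 2 (edgeR adjusted p = 0.0641, 0.157 and 0.149). The transcription factors ATF5 (0.63) and ATF3 (0.81), the pseudokinase TRIB3 (0.56), the stress sensor SESN2 (0.66) and the secreted glycoprotein STC2 (0.92) were higher in ziram. PCK2, the mitochondrial form of phosphoenolpyruvate carboxykinase, is outside the list and was named after its values were seen. It stood at 16, 14.9 and 17 CPM in ziram, 7.87, 6.93 and 8.72 CPM in methylmercury and 10.2, 8.6 and 10.3 CPM in DMSO (1.01 ± 0.15; edgeR adjusted p = 0.000146).

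The number of ATF4 targets called depended on single libraries. It was 3 without methylmercury replicate 2, 5 without ziram replicate 1, 7 without ziram replicate 3 and 9 without ziram replicate 2 or methylmercury replicate 1, while 0 were called lower in each case. The amino acid response element, spelled TGATGNAA, occurred in 5 of 24 matched promoters of the list and in 3.67% of all promoters.

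The calls among genes of the unfolded protein response of the endoplasmic reticulum lay on the other side, but most of that list did not pass. Of 20 tested, 4 were lower in ziram and 0 higher (7 and 1 at an unadjusted p under 0.05, and 5 and 1 by DESeq2). The median log2 difference was -0.15, and 0.345% of all genes were called lower and 0.743% higher. MANF, a neurotrophic factor secreted under such stress, stood at 62.8, 66.1 and 69.7 CPM in ziram, 93, 109.6 and 91.9 CPM in methylmercury and 84.3, 74 and 73.2 CPM in DMSO. Every ziram library was below and every methylmercury library above all DMSO libraries, and the log2 difference between the treatments was -0.57 ± 0.11 (edgeR adjusted p = 0.00455). HSP90B1, the HSP90 of the endoplasmic reticulum, stood at 439, 462 and 441 CPM in ziram, 582, 649 and 529.8 CPM in methylmercury and 434, 468 and 492 CPM in DMSO (-0.39 ± 0.08; edgeR adjusted p = 0.00707). The ziram and DMSO libraries overlapped and the methylmercury libraries were higher than both. The disulfide isomerases PDIA3 (-0.33) and PDIA6 (-0.29) completed the 4.

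No gene of the list was called against DMSO in either treatment: by DESeq2, 0 in ziram and 2 higher in methylmercury, and at an unadjusted p under 0.05, 0 in ziram and 5 higher in methylmercury. The edgeR adjusted p of MANF was 0.0596 and 0.0684 without ziram replicate 1 and without methylmercury replicate 2, and that of HSP90B1 was 0.063 and 0.114. The count of 4 was 0 without ziram replicate 1 or methylmercury replicate 2, and 2 without ziram replicate 3 or methylmercury replicate 1. The endoplasmic reticulum stress element occurred in 6 of 19 matched promoters of the list.

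**Figure D4:**
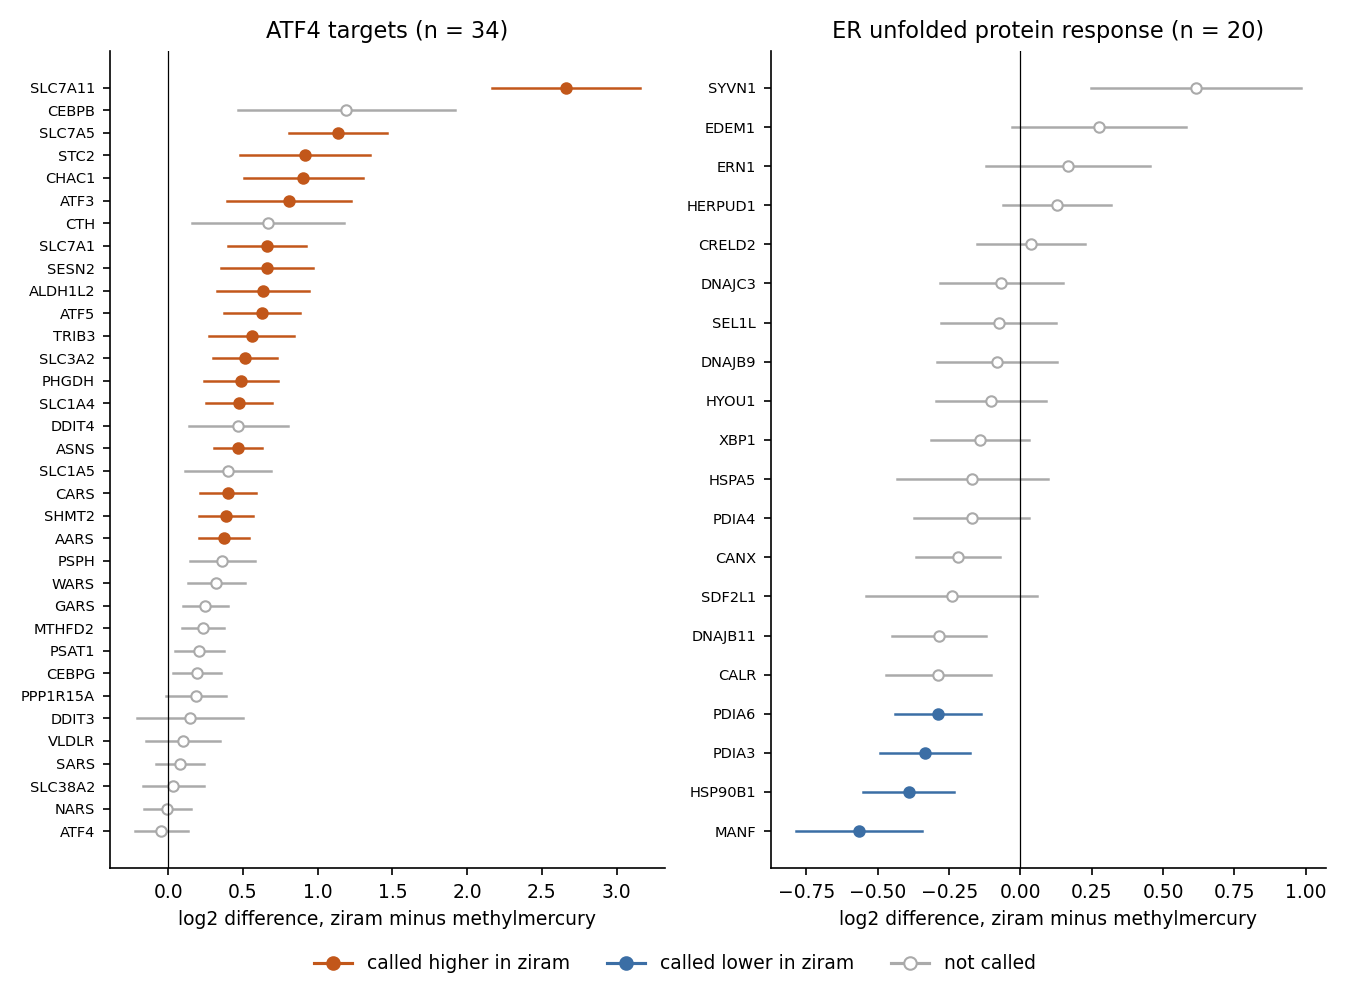
Log2 differences between ziram and methylmercury (points) with 95% intervals of the fit (lines) for the 34 ATF4 targets and the 20 members of the unfolded protein response list. Filled points passed the edgeR test over all genes: 17 ATF4 targets to the right of 0 and 4 endoplasmic reticulum genes to the left.

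The calls in housekeeping lists, where there were any, lay on the lower side in ziram. Of 83 cytosolic ribosomal protein genes, a list added after values were seen, 9 were called lower and 0 higher (49 and 0 at an unadjusted p under 0.05; 18 and 0 by DESeq2), 79 lay below 0 and the median log2 difference was -0.19. Over all 18852 genes tested, 0.345% were called lower, 0.743% were called higher and 8988 lay below 0. The summed level of the ribosomal protein genes was 47342 to 50286 CPM in ziram, 52043 to 58640 CPM in methylmercury and 51856 to 56934 CPM in DMSO. RPL26 stood at 92.9, 102 and 95.9 CPM in ziram and 115, 201 and 143 CPM in methylmercury, with methylmercury replicate 2 far above the rest (-0.65 ± 0.16; edgeR adjusted p = 0.0337). RPS27A, which encodes ubiquitin fused to a ribosomal protein, stood at 476, 483 and 476 CPM in ziram and 562, 663 and 582 CPM in methylmercury (-0.33 ± 0.08). Without ziram replicate 1, ziram replicate 3 or methylmercury replicate 2 the 9 calls became 0, and without ziram replicate 2 they became 1. Ribosomal proteins have many processed pseudogenes, so their reads may have been shared.

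Proteasome subunits gave 0 calls of 31 in edgeR (0 higher and 5 lower at an unadjusted p under 0.05; 1 lower by DESeq2), with a median of -0.09. Mitochondrially encoded proteins gave 0 calls of 13 (5 lower unadjusted; 1 lower by DESeq2), yet 12 of 13 lay below 0 with a median of -0.25. Their summed level was 2378 to 2477 CPM in ziram, 2736 to 2970 CPM in methylmercury and 2844 to 2946 CPM in DMSO, so the ziram libraries lay below both other groups. The targets of p53 gave 0 calls of 23 (1 in each direction unadjusted; 0 by DESeq2). In cholesterol synthesis, ACAT2 stood at 165, 168 and 169 CPM in ziram and 201, 205 and 214 CPM in methylmercury (-0.30 ± 0.07), and FDPS stood at 82.5, 81.2 and 82.3 CPM in ziram and 99.1, 110.0 and 106 CPM in methylmercury (-0.36 ± 0.09). These were 2 of 24 genes of that list, beside 0.345% of all genes called lower, and 0 were higher. Both calls were lost without any 1 ziram library or without methylmercury replicate 2 or 3. Of 14 tubulins, TUBB was the only call (-0.27), and it was lost without any 1 of the 6 libraries.

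**Figure D5:**
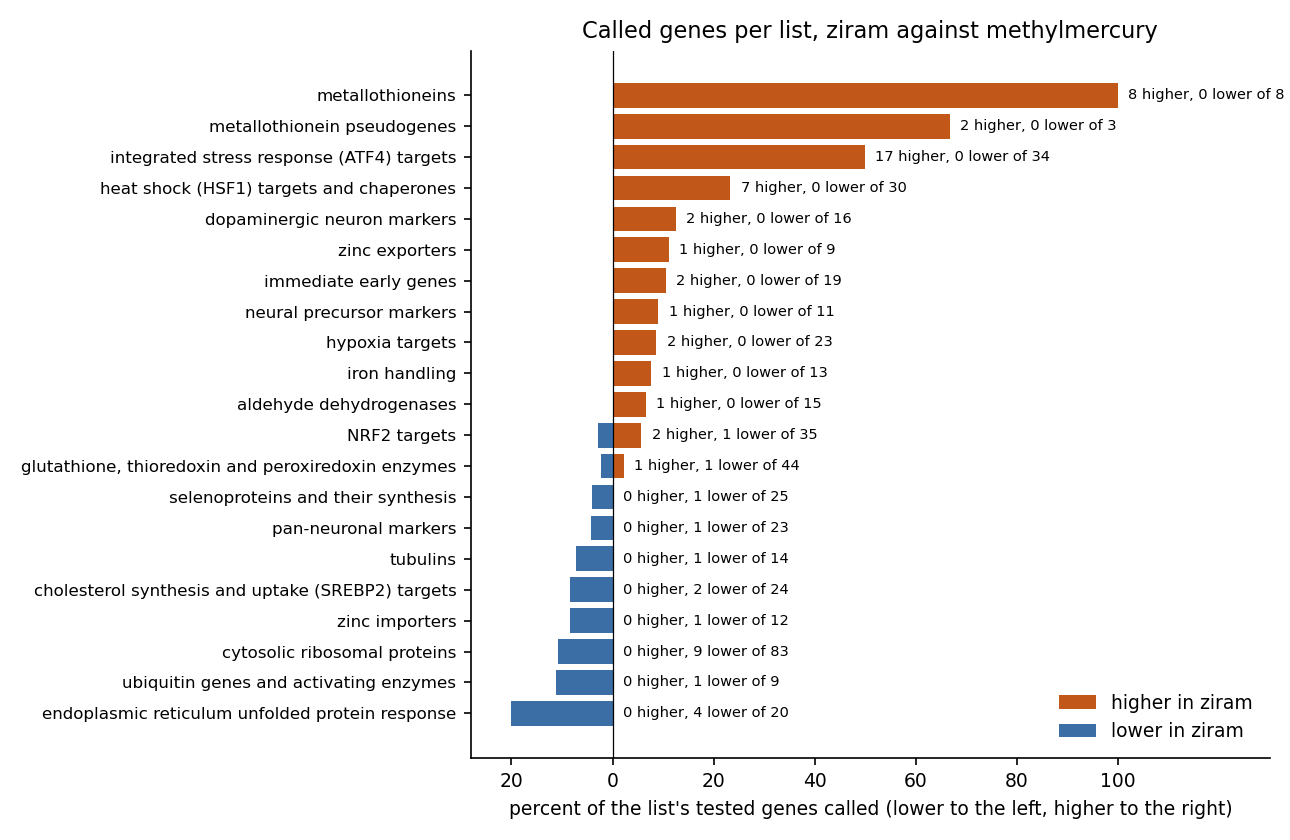
Share of each list's tested genes called higher (right) or lower (left) in ziram than in methylmercury, with the counts printed, for the lists with at least 1 call. All 8 metallothioneins and 17 of 34 ATF4 targets were higher, and the endoplasmic reticulum and ribosomal protein lists (the ribosomal list was added after values were seen) had calls only on the lower side. Over all genes tested, 0.743% were called higher and 0.345% lower.

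Among immediate early genes, JUN stood at 99.9, 83.3 and 97.7 CPM in ziram, 63.7, 47.9 and 67.2 CPM in methylmercury and 85.7, 89.2 and 84.6 CPM in DMSO. Its ziram and DMSO libraries overlapped and its methylmercury libraries were lower than both, with a log2 difference between the treatments of 0.65 ± 0.12 (edgeR adjusted p = 0.00208). ATF3, also in this list, was the other of 2 calls among 19, and it was lost without any 1 of the 6 libraries. Of 23 hypoxia targets 2 were called higher in ziram and 0 lower (10 and 1 at an unadjusted p under 0.05, and 3 and 0 by DESeq2). Of all genes tested, 0.743% were called higher and 0.345% lower. The log2 difference was above 0 for 19 and below 0 for 4, with a median of 0.28. Against DMSO, edgeR called 2 higher in ziram and 0 in methylmercury, beside 0.408% and 0.223% of all genes. DESeq2 called 8 and 2 higher, beside 131 of 15197 and 220 of 12273 genes. Called between the treatments were the circadian repressor BHLHE40 with 8.04, 5.83 and 3.92 CPM in ziram and 2.13, 1.55 and 2.64 CPM in methylmercury (1.45 ± 0.32) and the glucose transporter SLC2A1 with 104, 108 and 106 CPM in ziram and 77.8, 78 and 83.2 CPM in methylmercury (0.41 ± 0.10). Both calls were lost without ziram replicate 1 or 2 or methylmercury replicate 1 or 2.

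Neuronal markers differed in few genes. The GDNF co-receptor RET stood at 109.9, 111 and 128 CPM in ziram, 92.3, 75.4 and 86.7 CPM in methylmercury and 90.9, 105 and 101 CPM in DMSO (0.45 ± 0.11; edgeR adjusted p = 0.0318). The potassium channel KCNJ6 stood at 11.1, 6.18 and 7.46 CPM in ziram and 5.06, 3.3 and 3.86 CPM in methylmercury (1.00 ± 0.24). These were 2 of 16 dopaminergic markers, beside 0.743% of all genes called higher. The summed level of the 16 markers was 1507 to 1584 CPM in ziram, 1431 to 1543 CPM in methylmercury and 1484 to 1578 CPM in DMSO. Both calls were lost without ziram replicate 1 or 3 or methylmercury replicate 2 or 3. ELAVL4, a neuronal RNA-binding protein, was the only call among 23 pan-neuronal markers, with 35, 45.3 and 35.4 CPM in ziram, 61, 69.4 and 56.4 CPM in methylmercury and 68.3, 52.6 and 44.4 CPM in DMSO (-0.68 ± 0.14; edgeR adjusted p = 0.00963). Its edgeR adjusted p was 0.12 without ziram replicate 1, 0.0859 without ziram replicate 3 and 0.0984 without methylmercury replicate 2.

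Markers of cycling cells gave 0 calls of 21 in edgeR (1 higher and 11 lower at an unadjusted p under 0.05; 2 lower by DESeq2), yet 20 of 21 lay below 0, with a median of -0.25. Their summed level was 1086 to 1162 CPM in ziram, 1182 to 1380.5 CPM in methylmercury and 1037 to 1098 CPM in DMSO, with methylmercury replicate 2 the highest. Against DMSO, edgeR called 2 of the 21 higher in methylmercury, beside 0.223% of all genes. DESeq2 called 4 higher, beside 220 of 12273 genes. At an unadjusted p under 0.05, 13 were higher, and the share of all genes at that threshold was not counted. In ziram 0 of the 21 differed from DMSO by any of these counts. The genes SGO1, which protects centromeric cohesion, and CENPU, a kinetochore protein, were called lower in ziram and likewise had methylmercury replicate 2 as the highest library. CENPU stood at 31.6, 35.1 and 28.8 CPM in ziram, 48.2, 64 and 36.5 CPM in methylmercury and 35.7, 34.3 and 34.8 CPM in DMSO, and SGO1 stood at 4.7, 5.5 and 4.21 CPM in ziram, 7.36, 11.3 and 7.23 CPM in methylmercury and 4.98, 4.64 and 5.85 CPM in DMSO. The part of cycling cells in these differences was not tested. Neural precursor markers summed to 292 to 327 CPM in ziram and 261 to 281 CPM in methylmercury, and SOX2 was the only call of 11, with 58 reads in ziram and 1 in methylmercury, a call lost without any 1 of the 6 libraries. Astrocyte and oligodendrocyte markers gave 0 calls of 9 (1 higher unadjusted; 1 higher by DESeq2), and the astrocyte water channel AQP4 stood below 0.3 CPM in all 3 groups.

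Other genes with large differences were mostly of low level. PLPP2, a lipid phosphate phosphatase, stood at 3.53, 1.86 and 2.86 CPM in ziram, 0.167, 0 and 0.577 CPM in methylmercury and 0.356, 0.323 and 0.0887 CPM in DMSO (3.22 ± 0.69; edgeR adjusted p = 0.0135), a call lost without ziram replicate 1 or 3 or methylmercury replicate 1 or 2. CACNA1G, a T-type calcium channel, stood at 2.94, 2.09 and 1.8 CPM in ziram and 0.544, 0.0673 and 0.425 CPM in methylmercury (2.58 ± 0.60), and its call was lost without any 1 of the 6 libraries. Some genes were named here after their values were seen. VGF, a neuropeptide precursor, stood at 17.7, 11.7 and 15.1 CPM in ziram, 5.69, 4.51 and 6.93 CPM in methylmercury and 7.19, 5.17 and 4.94 CPM in DMSO (1.35 ± 0.25; edgeR adjusted p = 0.00284). The kainate receptor subunit GRIK3 was also higher in ziram, at a mean of 4.90 CPM in ziram, 1.69 CPM in methylmercury and 2.49 CPM in DMSO. So were acetylcholinesterase ACHE (1.08) and the adrenomedullin relative ADM2 (1.83). The calls of GRIK3, ACHE and ADM2 were lost without ziram replicate 1 or methylmercury replicate 2.

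Some of the genes lower in ziram than in methylmercury also differed from DMSO in ziram, and others did so in methylmercury. SEZ6L, a neuronal membrane protein, stood at 10, 13.7 and 16.6 CPM in ziram, 25.9, 22.7 and 20.7 CPM in methylmercury and 24.3, 24.6 and 21.1 CPM in DMSO (-0.78 ± 0.18; edgeR adjusted p = 0.021). Its ziram libraries were lower than all others, and ziram differed from DMSO by -0.79 (edgeR adjusted p = 0.0235). NDNF, a secreted neuron-derived factor, stood at 1.76, 2.71 and 2.28 CPM in ziram, 4.81, 3.97 and 4.4 CPM in methylmercury and 6.12, 6.62 and 6.12 CPM in DMSO, and its 3 groups did not overlap (-0.96 ± 0.24; edgeR adjusted p = 0.0413). F3, tissue factor, stood at 12.7, 12.5 and 10 CPM in ziram, 19.2, 21.8 and 19.3 CPM in methylmercury and 8.82, 9.41 and 11.8 CPM in DMSO. Its ziram and DMSO libraries overlapped, its methylmercury libraries were higher than both, and the log2 difference between the treatments was -0.77 ± 0.15 (edgeR adjusted p = 0.00455).

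IFI44L, an interferon-induced gene, stood at 146, 163 and 134 CPM in ziram, 213, 288 and 215 CPM in methylmercury and 174, 126 and 130.4 CPM in DMSO. Methylmercury libraries were the highest and differed from DMSO by 0.74 (edgeR adjusted p = 0.00445), and the log2 difference between the treatments was -0.69 ± 0.12 (edgeR adjusted p = 0.00208). Its relative IFI44, named after its values were seen, stood at 27.8, 27.5 and 19.97 CPM in ziram and 34.8, 45.3 and 30.7 CPM in methylmercury, and did not pass between the treatments (edgeR adjusted p = 0.0718; 0.0203 by DESeq2). PRL, the hormone prolactin, stood at 4.18, 3.64 and 3.7 CPM in ziram, 7.03, 7.87 and 6.44 CPM in methylmercury and 5.34, 4.85 and 5.91 CPM in DMSO (-0.88 ± 0.20; edgeR adjusted p = 0.0206). The synaptic organiser CBLN2 (-0.61) and the mitochondrial tRNA gene MT-TP (-0.84) were lower in ziram too. Without methylmercury replicate 2 the calls of PRL, SEZ6L, NDNF, CBLN2, MT-TP, RPL26, CENPU, SGO1, ELAVL4 and IFI44L were lost, while those of SLC39A10, TXNRD1 and F3 remained. Without ziram replicate 1 the same calls were lost other than that of IFI44L, and F3 was lost without ziram replicate 3 (edgeR adjusted p = 0.0549).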

How the data were processed

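RNA sequencing counts of 24 libraries of LUHMES-derived neurons were analysed, 3 in each of 8 groups assigned from the compound labels. Per the labels' protocols, polyadenylated RNA was depleted of ribosomal RNA and sequenced on a HiSeq instrument. Per the submitters' processing notes, STAR, HTSeq, DESeq and GRCh38 were used. Versions, annotation, strand setting and the treatment of multiply mapped reads were not given in the sources used here, so near-identical and overlapping genes may have shared reads. The deposited counts are raw counts per gene, and the deposited normalized values were not used.

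The counts of all 24 libraries were fitted with edgeR 4.0.16 (R 4.3.3), with TMM scaling, the default expression filter and 1 coefficient for each group (16 residual degrees of freedom). Each contrast used its quasi-likelihood F test, with p-values adjusted over 18852 genes by Benjamini-Hochberg and a threshold of 0.05. Errors are SE of the fit for log2 differences and SD for CPM. Where a group held 1 to 3 reads, the ratio of reads was given with an exact 95% interval, and against 0 reads a bound with a floor of 3 reads over the group. DESeq2 1.42.0 was an alternative. On simulated counts for 18260 genes this procedure recovered 26.5%, 80.3% and 97% of genes changed by 0.5, 1 and 2 on the log2 scale between ziram and methylmercury, with 8 false calls of 143. Changes were placed only in genes with an average of at least 1 CPM, so the recovery does not cover lower genes. The simulated counts were drawn independently for each gene and library. They hold no trend shared by many genes of a library, so the share of false calls cannot be carried over to the real libraries. Replicates of a group differed by more than sampling noise, with a chi-square per degree of freedom of 4.19 to 19.97.

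Genes were named if they were among the 12 highest and 12 lowest by log2 difference past the threshold, with no overlap and a mean of 2 CPM or more in the group with more, or were metallothioneins or zinc exporters, or were among the 5 members of each of 26 lists with the smallest p. Other named genes were members of those lists or are marked as named after their values were seen. The comparison, its lists and its naming rule were chosen with earlier results of these data known. Coordinates and gene lengths came from GENCODE 29 (18762 genes matched), and promoters from RefSeq, matched by symbol.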

Additional observations from a re-analysis of the deposited data

Results flagged for a closer look

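In 5 of the called genes named here the treatments lay on opposite sides of the vehicle. Called genes were chosen for a difference between the treatments, which favours a vehicle level between them, so the layout is a description only. In 4 of them every ziram library was below and every methylmercury library above all DMSO libraries. These were PRL, with a log2 difference between ziram and methylmercury of -0.88, MANF with -0.57, RPS27A with -0.33 and PDIA6 with -0.29. In ACHE, with 1.08, every ziram library was above and every methylmercury library below all DMSO libraries. The direct difference passed the edgeR test in each, while neither treatment alone passed against DMSO (edgeR adjusted p of 0.594 in ziram and 0.449 in methylmercury for PRL, 0.77 and 0.175 for MANF, 0.989 and 0.179 for RPS27A, 0.833 and 0.394 for PDIA6, and 0.599 and 0.289 for ACHE). Among all 205 called genes the ziram libraries lay below and the methylmercury libraries above all DMSO libraries for 13, and the other way round for 26. The share over all genes tested was not counted. The calls of all 5 genes were lost without ziram replicate 1 or methylmercury replicate 2.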

How the results depend on the processing

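Between ziram and methylmercury, 334 genes (254 higher) were called with no filter on low counts, 504 (250 higher, 254 lower) with DESeq2, 599 (336 higher, 263 lower) with the ziram, methylmercury and DMSO libraries only and 417 (235 higher, 182 lower) with the GC and length correction, chosen after seeing the data. The number lower was 43 with library totals only and 109 with the 2 groups alone. Leaving out each replicate gave 51 to 248 calls, 44 to 154 higher and 6 to 94 lower. Against DMSO, ziram gave 160 calls with no filter, 184 with DESeq2, 588 with the 2 groups alone, 286 with the correction and 40 to 74 with each replicate left out. Methylmercury gave 249, 310, 81 and 391 calls under the same settings and 6 to 171 with each replicate left out, 6 without methylmercury replicate 2, 7 without DMSO replicate 2 and 171 without methylmercury replicate 3. The causes were not tested.

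The replicate numbers were not taken to pair samples, because ziram replicate 1 correlated best with methylmercury replicate 2 (0.181). Every other library of these groups correlated best with its own number. Same-numbered ziram and methylmercury libraries correlated at 0.039, 0.342 and 0.481, and those with different numbers at -0.411 to 0.181. Same-numbered ziram and DMSO libraries correlated at -0.084, -0.13 and -0.237. What libraries of the same number share was not tested. With the replicate block, 154 genes were called between the treatments (116 higher, 38 lower), 81 in ziram against DMSO and 48 in methylmercury against DMSO.

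Of 70 called genes named, none changed sign under any alternative run; over those genes and alternatives, the call held in 840 cases and was lost in 200. All 8 metallothioneins stayed called wherever tested; DESeq2 gave no adjusted p for MT1H and MT1A, and MT1A was not tested at a mean of at least 1 CPM. Depth limits the low genes most: MT1A, MT1H and SOX2 had 0 or 1 reads in methylmercury.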
